A study of Mus musculus with 4 samples.

Results

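Peritubular myoid cells are the flat, smooth muscle-like cells that wrap each seminiferous tubule, and 7 genes of their contractile apparatus are described here: Acta2, Myh11, Tagln, Des, Cnn1, Actg2 and Myl9. They were chosen by symbol, and all 7 were found among the 25265 genes of the deposited table. RNA came from whole testes of C57BL/6 mice on postnatal day 56. There were 2 control libraries, and the other 2 carried the label Ythdf2-vKO. YTHDF2 reads the N6-methyladenosine mark on RNA, and the series title places the mutation in germ cells. The labels name neither the allele of the control mice nor the driver of the deletion, and they do not say whether each library came from its own animal. P-values therefore measure the spread between these libraries, which may be technical.

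Contraction of these cells moves sperm and fluid along the tubule. Myosin pulls on actin filaments after its regulatory light chain has been phosphorylated by myosin light chain kinase in response to calcium. Many smooth muscle genes are switched on by serum response factor (SRF), which binds CArG boxes and works with myocardin family cofactors. The same genes are expressed in the smooth muscle of blood vessels, so RNA of a whole testis does not separate the sources.

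Libraries held between 24862518 and 29561182 counts. The targeted gene was checked first. Counts of Ythdf2 were 1193 and 1604 for control against 1774 and 1807 for the vKO label. The log2 fold change was 0.35 (SE 0.13; edgeR's quasi-likelihood test, adjusted p 0.238). It was not lower, so directions refer to library labels, vKO over control. Levels are given as CPM, in which TMM factors put the libraries on 1 scale, and a gene was called at a Benjamini-Hochberg adjusted p under 0.05.

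None of the 7 contractile genes was called, against 0.393% of the 21132 genes tested (83 genes). A DESeq2 Wald test also called none, and neither did fits with a replicate block, where 4.81% of all genes tested were called, or with a GC offset and that block, where 2.03% were. At an unadjusted p under 0.05 there was 1 gene, Myl9, against 14.1% of all genes tested. Fitted log2 fold changes ran from -0.15 for Actg2 to 0.34 for Myl9, with 3 positive and 4 negative and a median of -0.05, beside 0.00 over all genes tested. All 7 passed the filter on low counts. By library, 6 of the 7 were lowest in control replicate 1, the exception being Actg2. Over all genes tested, 26.7% were lowest there.

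**Figure D1:**
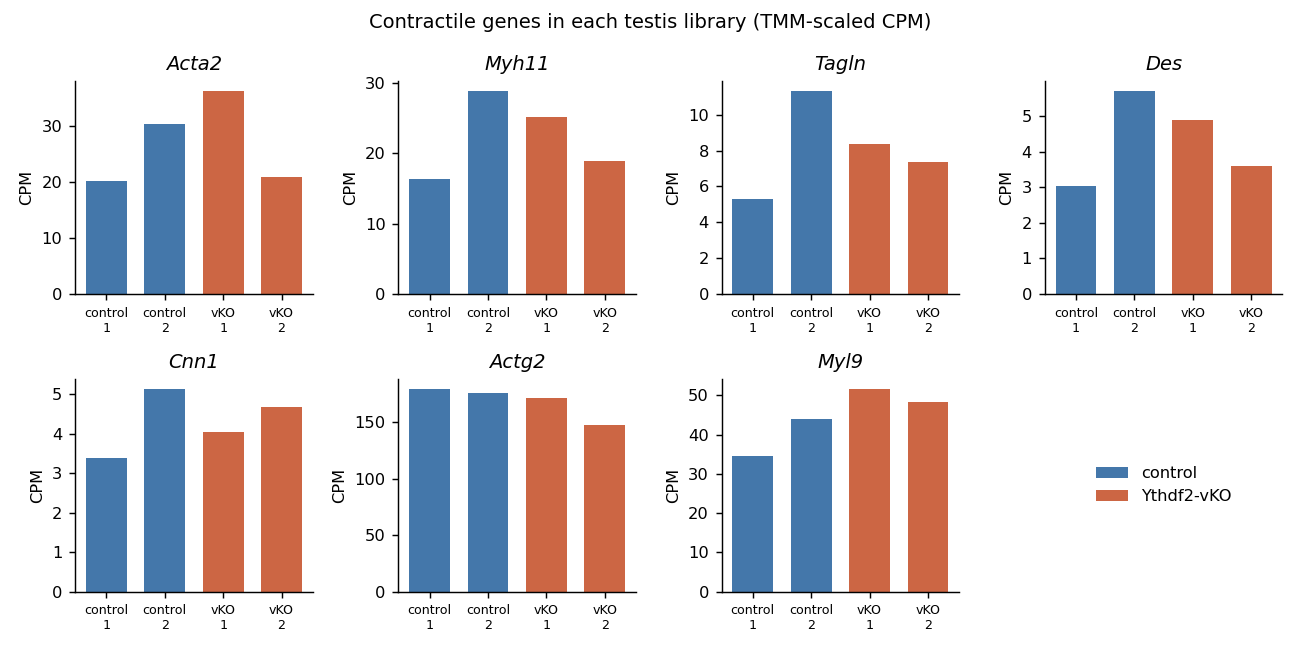
TMM-scaled CPM of each contractile gene, with 1 bar per library (blue, control; orange, libraries labelled Ythdf2-vKO), each panel on its own axis from 0. Acta2, Myh11, Tagln, Des, Cnn1 and Myl9 were lowest in control replicate 1, and Actg2 was lowest in replicate 2 of the libraries labelled vKO.

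RefSeq promoter windows, from 250 bases before to 50 bases after a start site in GRCm38.p6, were at hand for 4 of the genes: Acta2, Myl9, Des and Cnn1. They were searched on both strands for the CArG box, which is CC, then 6 bases of A or T, then GG, because SRF sites are a known shared feature of this gene set. The exact consensus lay in the window of 1 gene, Myl9, and in 1.63% of all 32851 windows. With at most 1 G or C allowed among its 6 central bases it lay in 2 genes, Acta2 and Myl9, each with 2 matches, and in 9.98% of all windows. Myl9's exact match is counted among these. The stretches below show the matches in capitals, 5′ to 3′ on the gene's strand. They are shown because these were the only ones of the 4 windows with a match.
Acta2, chr19:34255438-34255467, minus strand: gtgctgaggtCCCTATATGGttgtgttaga
Acta2, chr19:34255388-34255417, minus strand: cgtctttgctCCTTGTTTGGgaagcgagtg
Myl9, chr2:156775293-156775322, plus strand: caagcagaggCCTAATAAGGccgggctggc
Myl9, chr2:156775355-156775384, plus strand: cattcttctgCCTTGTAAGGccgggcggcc
Counted from the RefSeq start site, the Acta2 matches begin at -84 and -34 and those of Myl9 at -161 and -99. The GENCODE annotation of Acta2 reaches to 34255590 on this minus strand. Both Acta2 stretches therefore lie inside that annotated gene, and their place before a start holds for the RefSeq start alone. The window of Des and that of Cnn1 held no match under either definition. The E-box letters CANNTG, which read the same on both strands and overlapped none of these matches, lay in all 4 windows and in 72.3% of all windows. The TATA letters TATAAA, searched on both strands, lay in none of the 4 and in 13.6% of all windows.

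The thin filament is built of actin. Acta2 (ENSMUSG00000035783, GRCm38 chromosome 19, 34241090 to 34255590, minus strand) encodes smooth muscle alpha-actin, the usual marker of the myoid layer. It stood at 20.1 and 30.2 CPM in control, against 36.1 and 20.9 CPM under the vKO label. Replicate 1 of the libraries labelled vKO was the highest, and the groups overlapped. Its log2 fold change was 0.18 (SE 0.28, 95% interval -0.47 to 0.83, adjusted p 0.839 in edgeR's quasi-likelihood test). The group means were 25.1 ± 7.16 CPM in control and 28.5 ± 10.8 CPM under the vKO label (SD, n = 2 each).

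Actg2 (ENSMUSG00000059430, chromosome 6, 83512905 to 83536265, minus strand) encodes smooth muscle gamma-actin, which is typical of gut muscle and whose mRNA is also known from postmeiotic male germ cells of mice. Its levels were 179.7 and 175.8 CPM in control and 172.0 and 148.0 CPM under the vKO label. It was the only one of the 7 that was not lowest in control replicate 1, where it was in fact highest. The groups did not overlap, with 177.7 ± 2.73 CPM in control against 160.0 ± 16.96 CPM (SD, n = 2 each). The log2 fold change of -0.15 (SE 0.12, 95% interval -0.42 to 0.12) was not called (adjusted p 0.642, edgeR's quasi-likelihood test). The interval reaches from a 0.747-fold level to a 1.08-fold level.

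In the best alignment of their annotated transcripts, Acta2 and Actg2 are 84.2% identical over 1143 nt, and Acta2 is 85.4% identical to Acta1 over 1133 nt. How reads matching several genes were treated is not given in the sources used here. The skeletal muscle actin Acta1 had between 1 and 11 counts per library, against 469 to 967 for Acta2.

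The thick filament is built of myosin. Myh11 (ENSMUSG00000018830, chromosome 16, 14194535 to 14291372, minus strand) encodes the smooth muscle myosin heavy chain, the motor itself. It stood at 16.4 and 28.8 CPM in control, against 25.1 and 18.8 CPM under the vKO label. Both vKO values lay between the control values. The log2 fold change was -0.05 (SE 0.25, 95% interval -0.62 to 0.52, adjusted p 0.964 in edgeR's quasi-likelihood test).

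Myl9 (ENSMUSG00000067818, chromosome 2, 156775420 to 156781658, plus strand) encodes the regulatory light chain whose phosphorylation starts contraction. It stood at 34.6 and 44.0 CPM in control, against 51.6 and 48.3 CPM under the vKO label, so the groups did not overlap. The means were 39.3 ± 6.64 and 49.96 ± 2.35 CPM (SD, n = 2). The log2 fold change of 0.34 (SE 0.15, 95% interval 0.03 to 0.66) had an unadjusted p of 0.036 and an adjusted p of 0.314, and it was not called by edgeR. The authors' deposited table gave a log2 fold change of 0.34 with an adjusted p of 0.409. Without control replicate 2 its log2 fold change was 0.53 with an adjusted p of 0.021 (edgeR), the only fit in which a contractile gene was called. Over the 15 alternatives its adjusted p ran from 0.021 to 0.908. With an offset for GC content the log2 fold change was 0.18. Myl9 is 86.5% identical to Myl12b over 517 nt and 85.7% to Myl12a.

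Groups that did not overlap were thus seen for 2 of the 7 genes, Actg2 and Myl9, in opposite directions. Over all genes tested the share was 45.3%.

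The other genes encode proteins bound to the actin filaments and the intermediate filament. Tagln (ENSMUSG00000032085, chromosome 9, 45929619 to 45936058, minus strand) encodes transgelin or SM22 alpha, an actin-associated protein. It stood at 5.30 and 11.3 CPM in control, against 8.37 and 7.38 CPM under the vKO label. The widest gap between replicates among the 7 genes was here, with control replicate 2 at 2.13 times replicate 1 (exact 95% interval from the counts 1.73 to 2.64, counting error only). Its log2 fold change was -0.09 (SE 0.30, 95% interval -0.76 to 0.58, adjusted p 0.937 in edgeR's quasi-likelihood test). The antisense gene Gm48529 shares 1241 exonic bases with Tagln and had 100 to 144 counts per library, and Pcsk7 shares 108 bases on the opposite strand. The libraries were directional, but the strand setting of the counting is not given in the sources used here, so the division between these genes is uncertain.

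Des (ENSMUSG00000026208, chromosome 1, 75360329 to 75368579, plus strand) encodes desmin, the muscle intermediate filament. Its levels of 3.04 and 5.70 CPM in control enclosed those of 4.89 and 3.60 CPM under the vKO label. The log2 fold change was -0.05 (SE 0.31, 95% interval -0.72 to 0.61, adjusted p 0.964 in edgeR's quasi-likelihood test). The antisense gene Gm15179 shares 220 exonic bases with it.

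Cnn1 (ENSMUSG00000001349, chromosome 9, 22099216 to 22109630, plus strand) encodes calponin, which binds actin and restrains the myosin ATPase. It stood at 3.38 and 5.14 CPM in control, against 4.03 and 4.67 CPM under the vKO label, again inside the control range. Its log2 fold change was 0.02 (SE 0.26, 95% interval -0.55 to 0.59, adjusted p 0.983 in edgeR's quasi-likelihood test). With 71 to 171 counts per library for Des and 79 to 154 for Cnn1, these genes had the lowest depth. The unadjusted 95% intervals, as folds, were 0.72 to 1.78 for Acta2, 0.652 to 1.44 for Myh11, 0.59 to 1.5 for Tagln, 0.607 to 1.53 for Des and 0.685 to 1.51 for Cnn1.

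**Figure D2:**
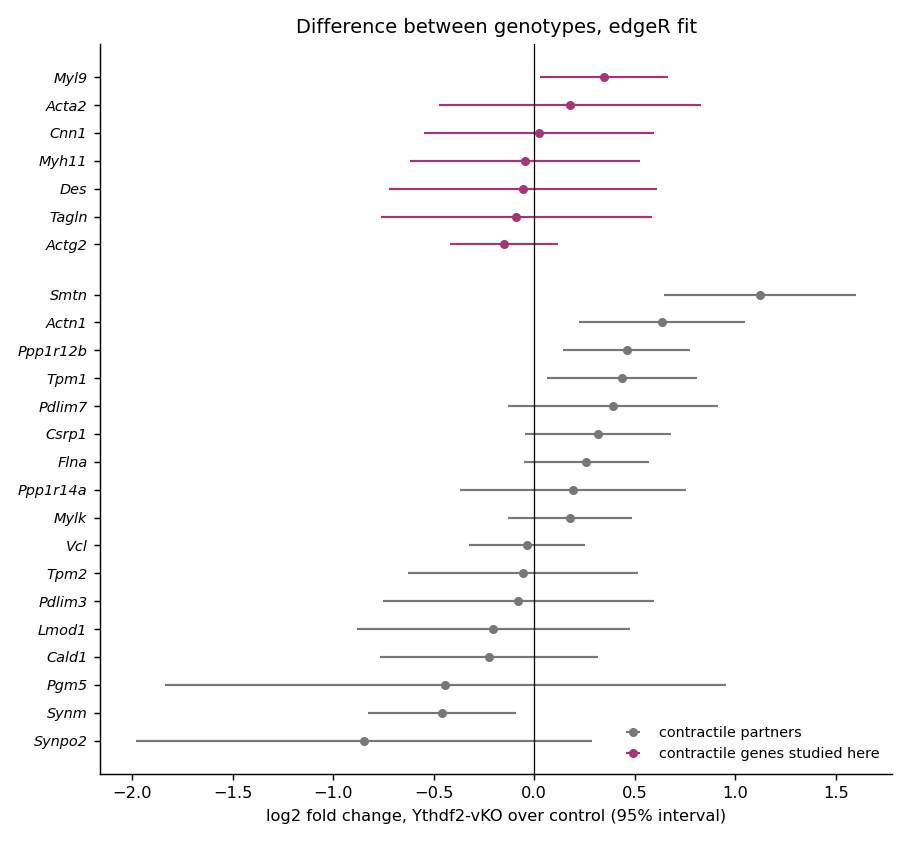
Fitted log2 fold changes of the libraries labelled Ythdf2-vKO over control with 95% intervals, for the 7 contractile genes (purple) and 17 partner genes of the contractile apparatus (grey). The interval of Myl9 lies just above 0 before adjustment, those of the other contractile genes cross 0, and Smtn stands highest at 1.12.

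Summed CPM and shares of these sums were not divided by exon length. Genes named as leading a list were those highest in mean CPM, again without that division. The order of the contractile genes was read after division by exon length, as CPM per kb of the exons of all annotated transcripts. Actg2 was highest at 108 ± 9.17, followed by Myl9 at 38.4 ± 6.35 and Acta2 at 12.2 ± 3.51 (SD over 4 libraries). Tagln at 4.07 ± 1.26 and Myh11 at 2.93 ± 0.747 came next, and their ranges over the libraries overlapped, from 2.67 to 5.69 and from 2.16 to 3.79. Cnn1 at 1.57 ± 0.28 and Des at 1.15 ± 0.323 also overlapped in range, from 1.24 to 1.88 and from 0.809 to 1.52. Within every one of the 4 libraries, however, Tagln was above Myh11 and Cnn1 above Des on this scale. Tagln shares 1241 of its 1988 exonic bases with the antisense gene Gm48529, so its place in this order is uncertain. At the other steps of the order the ranges did not overlap.

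Per exon length Actg2 stood at 12.6 and 8.21 times the level of Acta2 in the control libraries and at 6.71 and 9.98 times in those labelled vKO. These ratios overlapped between the groups. Actg2 alone made up 68.5% of the summed CPM of the 7 genes in control replicate 1 and 56.9% to 58.8% in the other libraries. The summed CPM of the other 6 genes was 82.8 in control replicate 1 and 125 in control replicate 2, and 130 and 104 under the vKO label. Actg2 was set apart after its values were seen, so the low sum of the other 6 genes in control replicate 1 followed from that choice. Over all 7 genes the summed CPM was 262.5 and 300.9 in control and 302.1 and 251.6 under the vKO label. Both sums overlapped between the groups.

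**Figure D3:**
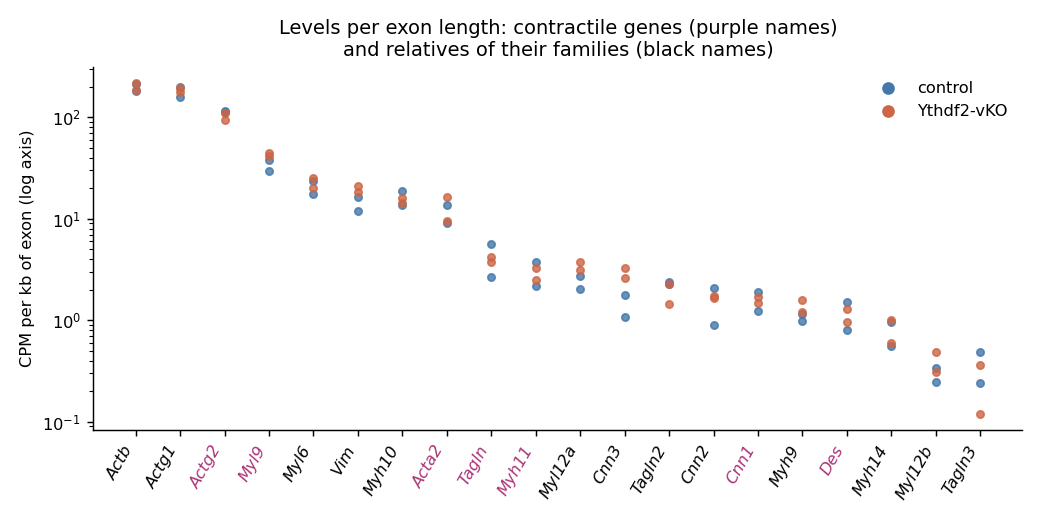
CPM per kb of exon on a log axis for the 7 contractile genes (purple names) and 13 tested relatives of their families (black names), with 1 point per library (blue, control; orange, labelled Ythdf2-vKO). Among the contractile genes Actg2 was highest at a mean of 108 and Des lowest at 1.15, and the cytoplasmic actins Actb and Actg1 stood above them all.

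The variation between replicates was described gene by gene. Control replicate 2 was at 1.5 times replicate 1 for Acta2 (exact 95% interval from the counts 1.34 to 1.69), 1.76 times for Myh11 (1.56 to 1.99) and 1.88 times for Des (1.42 to 2.51). The ratio was 1.52 for Cnn1 (1.15 to 2.02) and 1.27 for Myl9 (1.16 to 1.39). For Actg2 it was 0.978 (0.939 to 1.02). The intervals of 6 genes thus lay above 1 and that of Actg2 included it. Among the 17827 tested genes with a mean of at least 1 CPM, the median fold between the control replicates was 1.15 and the 95th percentile was 1.59. Tagln, Des and Myh11 lay beyond that percentile. Over these tested genes, the deviations from the mean over the libraries were also compared with GC content. Spearman correlations were 0.02 and -0.41 in control replicates 1 and 2, and 0.26 and 0.19 under the vKO label. The part of GC content in the gaps was not tested.

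Between the libraries labelled vKO, replicate 1 was at 1.73 times replicate 2 for Acta2 (exact 95% interval 1.56 to 1.92), wider than in 98.4% of those genes. The ratio was 1.33 for Myh11 (1.18 to 1.5), 1.36 for Des (1.04 to 1.79) and 1.16 for Actg2 (1.11 to 1.21). For Tagln, Cnn1 and Myl9 the interval included 1. Tagln, at 2.13 between the control replicates, was at 1.13 between those labelled vKO (0.933 to 1.38). The difference between these gaps was not tested.

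The fold changes of several genes depended on the library left out. Without control replicate 2 the log2 fold changes were 0.51 for Acta2, 0.42 for Myh11, 0.57 for Tagln, 0.48 for Des and 0.37 for Cnn1. Without control replicate 1 they were -0.09, -0.40, -0.53, -0.43 and -0.25 in the same order. The sign of these 5 fold changes therefore rested on which control library was used. Acta2 also turned to -0.27 without replicate 1 of the vKO label, and without replicate 2 Myh11 was at 0.14, Des at 0.15 and Cnn1 at -0.09. In each such fit the lone library of a group was assumed to vary like the other group. Actg2 stayed between -0.26 and -0.05 and Myl9 between 0.18 and 0.53 when any 1 library was left out. The median of the 7 genes was 0.48 without control replicate 2 and -0.25 without control replicate 1. In those fits 4.93% and 6.82% of all genes tested were called.

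**Figure D4:**
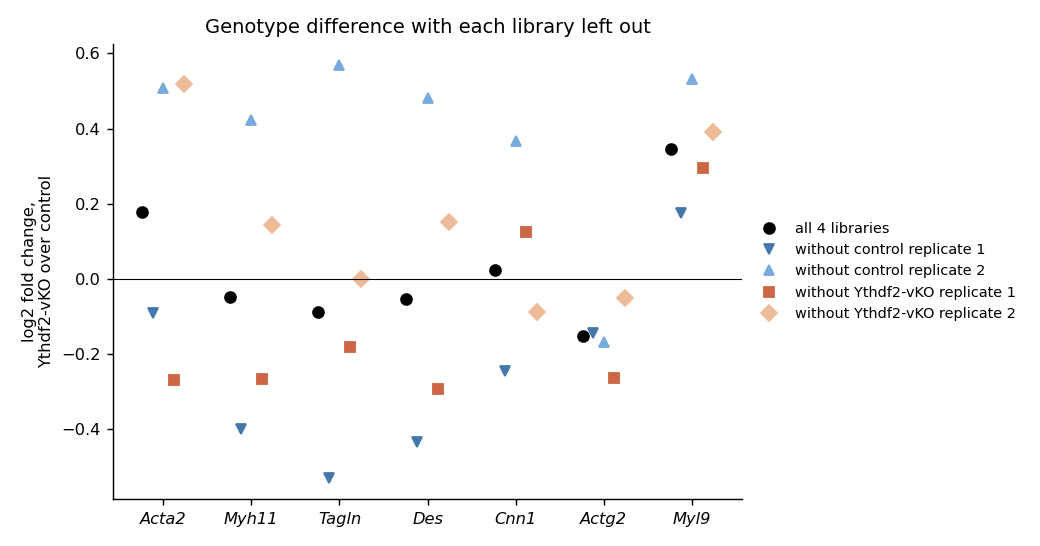
Log2 fold change of each contractile gene, labelled Ythdf2-vKO over control, with all 4 libraries (black circles) and with each library left out in turn (coloured symbols). Acta2, Myh11, Tagln, Des and Cnn1 changed sign between the fits without control replicate 1 and without control replicate 2, whereas Actg2 stayed below 0 and Myl9 above it.

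Lists of other cell types varied between the libraries too. Deviations are given on the scale of log2(CPM + 0.5) from the 4-library mean, as the median over a list. For the 6 contractile genes without Actg2 they were -0.38 and 0.32 in control replicates 1 and 2 and 0.20 and -0.14 under the vKO label. With Actg2 included, which was set apart after its values were seen, they were -0.37 and 0.24, then 0.20 and -0.19. For 6 tested fibroblast genes, led by Dcn and Col1a2, they were -0.53 and 0.44, then 0.17 and 0.01. For 9 macrophage genes, led by Mrc1 and Lyz2, they were -0.78 and 0.36, then 0.23 and -0.05. Of these 9, 7 were lowest in control replicate 1, against 26.7% of all genes tested, and the size of the drop differed. Mrc1 was not among the 7, at 24.7 and 28.5 CPM in control, then 29.9 and 24.0 CPM. Lyz2 stood at 9.45 and 27.8 CPM, then 21.8 and 20.3 CPM. For 7 spermatid genes, led by Prm2 and Akap4, the median deviations were 0.27 and 0.03, then -0.14 and -0.13. In control replicate 1 the medians were also below 0 for Leydig genes at -0.27, Sertoli genes at -0.23 and endothelial genes at -0.35, and above 0 for 5 tested striated muscle genes at 0.13. Actg2, at 0.09 and 0.06 and then 0.03 and -0.19, was also highest in control replicate 1, as were 6 of the 7 spermatid genes and 26.3% of all genes tested. The part of cell makeup in the fold changes of the contractile genes was not tested. In whole-testis RNA, fewer cells of a type and less RNA per cell cannot be told apart.

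**Figure D5:**
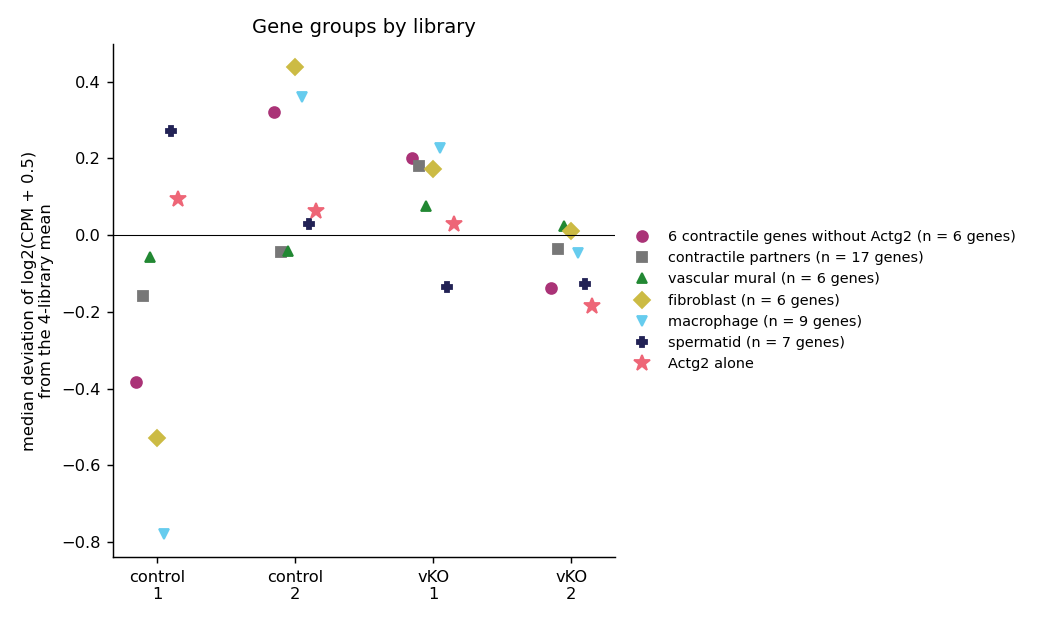
Median deviation of log2(CPM + 0.5) from the 4-library mean in each library, for the contractile genes without Actg2, for Actg2 alone and for 5 lists of other genes, with the number of genes in the key. Control replicate 1 lies at -0.38 for the contractile genes without Actg2, -0.53 for fibroblast genes, -0.78 for macrophage genes and 0.27 for spermatid genes. Actg2 was set apart after its values were seen.

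Vascular mural cell genes, which include pericyte markers, summed to 34.9 to 40.5 CPM in control and 45.1 to 45.7 CPM under the vKO label. Ndufa4l2 and Mcam made up most of these sums. Ndufa4l2 stood at 28.5 and 20.7 CPM in control, then 29.8 and 31.5 CPM. It was the only tested mural gene whose groups did not overlap, against 45.3% of all genes tested. Mcam, at 8.17 and 8.97 CPM and then 11.4 and 8.67 CPM, overlapped. Of the 9 listed, 6 were tested, 4 of them with positive and 2 with negative fold changes, a median log2 fold change of 0.19 and 0 called (edgeR; 0 at an unadjusted p under 0.05). That median was 0.02 with the GC offset. The pericyte marker Higd1b had a mean of 0.101 CPM. Striated muscle genes summed to 5.94 to 6.07 CPM in control and 4.23 to 4.97 CPM under the vKO label, led by Myh1 and Ckm. Myh1 stood at 1.84 and 2.50 CPM in control, then 0.859 and 0.482 CPM (log2 fold change -1.69, adjusted p 0.111, edgeR). Ckm, at 1.58 and 1.30 CPM and then 1.57 and 1.15 CPM, overlapped. Of the 5 tested, 2 had positive and 3 negative fold changes. Fibroblast genes summed to 31.8 to 67.4 CPM in control and 51.4 to 60.03 CPM under the vKO label, and Dpt was at 0 counts in replicate 2 of the latter. None of the fibroblast, macrophage or striated muscle genes was called (edgeR; 0, 1 and 1 at an unadjusted p under 0.05), and their median log2 fold changes were 0.10, 0.07 and -0.08. Among 7 epididymis markers 2 were in the table, with Rnase10 at 5.34 to 8.13 CPM and Crisp1 at a mean of 0.164 CPM.

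All 9 Sertoli cell genes, led by Clu and Amhr2, had positive fold changes, with a median of 0.44 and 6 at an unadjusted p under 0.05. Groups did not overlap for 8 of them. The 1 gene called was Wt1, just under the threshold, at a log2 fold change of 0.71 (adjusted p 0.0418, edgeR). Over all genes tested, 14.1% had an unadjusted p under 0.05, 45.3% had groups that did not overlap and 0.393% were called. All 6 Leydig cell genes, led by Cyp17a1 and Insl3, had positive values with a median of 0.38, and 6 of 7 endothelial genes, led by Flt1 and Cdh5, with a median of 0.70. The medians were 0.80 for 3 erythrocyte genes and -0.29 for the 7 spermatid genes. None of the genes in these 4 lists was called (edgeR; 3, 3, 3 and 4 at an unadjusted p under 0.05 for Leydig, endothelial, erythrocyte and spermatid genes). The contractile genes, at a median of -0.05, are given beside them as a description, and the difference was not tested.

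Partners of the contractile apparatus were read from a list of 18 genes, of which 17 were tested. By edgeR 0 were called, 5 had an unadjusted p under 0.05 and the DESeq2 Wald test called 1, Smtn. There were 9 positive and 8 negative fold changes with a median of 0.18, beside 0.00 over all genes. The median turned to -0.01 with the GC offset, and it was 0.02 without replicate 1 of the vKO label. It was 0.07 with no filter and 0.07 in the DESeq2 Wald test, where Kcnmb1 entered and 18 genes were read in place of 17. Smtn encodes smoothelin, a protein of contractile smooth muscle filaments. It stood at 4.53 and 3.87 CPM in control, against 10.2 and 8.04 CPM under the vKO label, and the groups did not overlap. Its log2 fold change of 1.12 (SE 0.22, 95% interval 0.65 to 1.60) missed the threshold, with an adjusted p of 0.0513 (edgeR's quasi-likelihood test). With all 4 libraries it passed with library totals alone, no filter, at least 10 counts in every library or the replicate block. It passed as well in the DESeq2 Wald test and with the GC offset and replicate block. Each of these fits called more genes higher and more lower than the 59 and 24 reported. The replicate block called 4.81% of all genes tested, and 2.03% with the GC offset, against 0.393%. With the GC offset alone Smtn missed (adjusted p 0.0699, edgeR). Log2 fold changes ran from 0.88 to 1.29 over the 15 alternatives. The annotated transcript Gm11946 on the opposite strand shares 714 exonic bases with Smtn.

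Next in that list were Actn1, Ppp1r12b and Synm, none of which was called. Tpm1, the other gene with a low unadjusted p, encodes a tropomyosin and was named after its values were seen (log2 fold change 0.43, adjusted p 0.281, edgeR). Actn1, which encodes the actin crosslinker alpha-actinin, had a mean of 8.86 ± 1.82 CPM in control and 13.7 ± 0.365 CPM under the vKO label (log2 fold change 0.64, adjusted p 0.169, edgeR). Ppp1r12b, a regulatory subunit of myosin phosphatase, had 27.5 ± 2.96 and 37.8 ± 3.73 CPM (0.46, adjusted p 0.193). Synm, the intermediate filament protein synemin that pairs with desmin, had 16.6 ± 2.06 and 12.1 ± 0.935 CPM (-0.46, adjusted p 0.25). With the replicate block Actn1 and Ppp1r12b were called, at log2 fold changes of 0.65 and 0.46, as were 4.81% of all genes tested. They were not called with the GC offset and replicate block (adjusted p 0.0987 and 0.0741, edgeR), where 2.03% were. Their log2 fold changes were 0.85 and 0.56 without control replicate 1, and 0.44 and 0.35 without control replicate 2. Of the 17 partners, 8 were higher in control replicate 2 than in replicate 1. Beside this stood 6 of the 7 contractile genes and 50.5% of all genes tested. The list was not tested as a set.

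Relatives from the same protein families were also measured. Of 15 listed genes 13 were tested, with 10 positive and 3 negative fold changes, a median of 0.13 and 0 called (edgeR; 3 at an unadjusted p under 0.05). Cnn3, an acidic calponin found outside muscle too, averaged 4.33 ± 1.52 CPM in control and 8.97 ± 1.47 CPM under the vKO label (SD, n = 2; log2 fold change 1.04, SE 0.26, adjusted p 0.109, edgeR). Cnn1, by contrast, differed by 0.02, and the difference between the pair was not tested. Vim, the intermediate filament gene vimentin of many somatic cells, had 57.1 and 78.3 CPM, then 98.8 and 86.5 CPM (0.45, adjusted p 0.229). Myl12a, a nonmuscle regulatory light chain, had 8.02 ± 1.78 and 11.6 ± 1.48 CPM (0.53, adjusted p 0.267, edgeR). The annotation of Myl12a shares 462 exonic bases on the same strand with a gene entry named Myl12b. That entry has no counts here and is not the Myl12b that was tested. Myh9, the nonmuscle myosin IIA heavy chain, had a log2 fold change of 0.38 (adjusted p 0.363). It was 0.17 when replicate 1 of the vKO label was left out, and 0.21 under the GC offset. Cnn3 was called with the replicate block, at 1.06, as were 4.81% of all genes tested. It was also called with the GC offset and replicate block, at 1.07 (adjusted p 0.0371, edgeR), where 2.03% were. Without control replicate 2 the log2 fold changes of Cnn3, Vim and Myl12a were 1.46, 0.70 and 0.78. Without control replicate 1 they were 0.72, 0.23 and 0.32.

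The regulators gave 0 calls among 7 tested of 8 listed (edgeR; 0 at an unadjusted p under 0.05), with a median log2 fold change of 0.11. Srf itself had 55.3 ± 8.01 CPM in control and 61.7 ± 5.37 CPM under the vKO label (log2 fold change 0.16, adjusted p 0.68). Its sign turned with the GC offset, to -0.08, and with 1 control library left out it was at 0.31 (without replicate 1) or 0.02 (without replicate 2). Klf4, a repressor of smooth muscle genes in vessels and also a gene of postmeiotic germ cells, had 165 ± 41.6 and 208 ± 10.9 CPM (0.34, adjusted p 0.365, edgeR). Its log2 fold change was 0.62 without control replicate 1, 0.10 without control replicate 2 and 0.22 with the GC offset. Elk3 and Elk4, which encode ternary complex partners of SRF, had log2 fold changes of -0.54 (adjusted p 0.515) and 0.12 (adjusted p 0.86). With 1 library left out Elk3 ranged from -0.83 to -0.30 and Elk4 from -0.02 to 0.24. Myocd, the gene of the cofactor myocardin, was too low to be tested at a mean of 0.131 CPM.

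Receptors and signalling genes of contraction numbered 16, of which 12 were tested, with 9 positive and 3 negative fold changes, a median of 0.20 and 0 called (edgeR; 1 at an unadjusted p under 0.05). That gene was Itpr1, an inositol trisphosphate receptor of the calcium store, with 27.8 ± 0.154 and 34.5 ± 3.98 CPM (log2 fold change 0.31, adjusted p 0.353). Rhoa had 0.21 (adjusted p 0.488), the calcium channel gene Cacna1c 0.36 (adjusted p 0.56) and the kinase gene Rock1 -0.27 (adjusted p 0.408). Cacna1c was at 0.70 without control replicate 1 and at 0.06 without control replicate 2. Without replicate 1 of the vKO label Itpr1 was at 0.19 and Rock1 at -0.17, and Rock1 was also at -0.17 without control replicate 2.

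Genes of myoid cells outside the contractile apparatus comprised 11, all tested. They gave 7 positive and 4 negative fold changes, a median of 0.24 and 0 called (edgeR; 3 at an unadjusted p under 0.05). The median turned to -0.03 without replicate 1 of the vKO label. The basement membrane genes Nid1 and Col4a2, the most abundant of them, had log2 fold changes of -0.11 (adjusted p 0.928) and 0.64 (adjusted p 0.145). The other 2 with a low unadjusted p were Pdgfra, at 1.05 (adjusted p 0.0725), and Col4a1, at 0.84 (adjusted p 0.159), both named after their values were seen. Pdgfra is expressed in several interstitial cells.

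To describe which other genes shared the library pattern, the distance of centred log2(CPM + 0.5) values over the 4 libraries from the mean profile of the 7 genes was taken for 10348 genes with at least 10 CPM. The mean profile was -0.32 and 0.26 in control and 0.16 and -0.10 under the vKO label. The nearest gene was Stra8, at a distance of 0.0473, with 11.5 and 17.2 CPM in control and 16.3 and 12.9 CPM under the vKO label. Ctgf at 0.0778, Fkbp9 at 0.0783, Gsn at 0.0798 and Hspa8 at 0.0888 followed. Stra8 is a germ cell gene of meiotic entry, and Ctgf and Gsn are expressed in many connective tissue cells. Of the 7 genes, Myh11 and Des lay closest to their own mean, at 0.19 and 0.196, and Actg2 farthest at 0.484, where 34.3% of the other genes were closer. Each of the 7 is part of that mean, which shortens its own distance but not those of the other genes. With a floor of 1 CPM only Stra8 remained among the nearest 5.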

How the data were processed

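Whole-testis RNA was depleted of ribosomal RNA and made into directional libraries, per the labels' protocols. HISAT2 2.1.0 and HTSeq 0.6.1p1 are named in the submitters' processing notes. The genome build, annotation, strand setting and treatment of reads with several matches are not given in the sources used here. The authors deposited raw counts per gene and library, beside a mean normalized count (a signal of counts over size factors), a log2 fold change, a test score and p-values, per the file headers. The lowest sum over the 4 libraries was 10 counts. Coordinates, exon lengths and GC content came from GENCODE M21 (GRCm38), joined by gene identifier for 25241 of 25265 genes, and promoter windows from RefSeq.

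Counts were tested with edgeR 4.0.16 (R 4.3.3): TMM scaling, the filterByExpr filter, a quasi-likelihood model with the group as its one term (robust, 21132 genes) and Benjamini-Hochberg adjustment. SE was the absolute log2 fold change over the square root of F, and 95% intervals used the total degrees of freedom. The prior count was 0.125. DESeq2 1.42.0 was an alternative, as were other scalings, filters, offsets and left-out libraries. The steps were tested on simulated data. The members and lists were chosen with earlier results of these data known. Of 150 listed genes 141 were in the table. The text names all 7 members, the markers highest in mean CPM and the 5 nearest profiles. It also names the 4 partners, relatives, regulators and signalling genes with the lowest p in their list. Other names were added after their values were seen. Transcripts were compared with BLAST 2.17.0. Intervals on ratios of counts cover counting error only.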

Additional observations from a re-analysis of the deposited data

How the results depend on the processing

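The 7 contractile genes had 105 alternative fits, and 93 of these kept both the direction and the side of the threshold. The sign changed in 11. Myl9 was called in 1, without control replicate 2, which made 1 gene called in place of 0. Apart from fits that left out a library, Myh11 turned to 0.0045 with library totals alone and Cnn1 to -0.0174 with the GC offset. Leaving out 1 library gave log2 fold changes from -0.2678 to 0.5191 for Acta2, from -0.399 to 0.4218 for Myh11, from -0.5296 to 0.5697 for Tagln, from -0.4337 to 0.4823 for Des and from -0.2455 to 0.3658 for Cnn1, and medians of the 7 genes from -0.2644 to 0.4823. Without Actg2, an alternative chosen after seeing the data, the median was -0.0118. Srf turned to -0.0798 with the GC offset and to -0.0807 with the GC offset and replicate block, and Elk4 ranged from -0.0167 to 0.2372 with 1 library left out, the lowest without replicate 1 of the libraries labelled vKO.

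Counts of genes called higher and lower were 181 and 37 with library totals alone, 137 and 80 with the DESeq2 Wald test, 86 and 69 with the GC offset, and 50 and 15 without robust estimation, beside 59 and 24. Leaving out 1 library gave 30 to 1048 higher and 5 to 523 lower genes. The labels do not say what the replicate numbers mark, and no pairing was assumed. Deviations from the group mean in control replicate 1 and in replicate 1 of the vKO label correlated at 0.108 over genes. With 2 libraries per group, those of replicate 2 mirror them and add nothing. The replicate block gave 627 and 390 calls, and the GC offset with replicate block 203 and 225; neither called a contractile gene.

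The median of the contractile partners was -0.0092 with the GC offset, -0.0048 with the GC offset and replicate block, and 0.0229 to 0.294 with 1 library left out. That of the non-contractile myoid genes was -0.0334 to 0.2863 with 1 library left out. That of the vascular mural genes was 0.2527 with library totals alone, 0.2288 with no filter and 0.227 with the DESeq2 Wald test, where 9 genes were read in place of 6, 0.0183 with the GC offset, 0.0201 with the GC offset and replicate block, and 0.0159 to 0.1668 with 1 library left out. Other than where fewer libraries or more genes entered, the cause was not tested. Des and Cnn1 had the fewest counts of the 7 genes.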
